A study of Mus musculus with 18 samples.

Results

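Microglia of the adult mouse brain were compared with microglia of the brain at embryonic day 18.5 (E18.5) in single-cell transcriptome libraries made by MARS-seq. The 4 libraries labelled adult brain were set against the 6 labelled E18.5 brain, together 10 of the 18 libraries of the series, and their wells were assigned through the amplification batch that each library label names. The other libraries, from earlier embryos, were not part of the contrast. They entered the filter on low counts, the scaling and a shared estimate of the spread, and so bore on which genes were tested. Cells of both ages came from untreated mice of the strain labelled CX3CR1-GFP+ C57BL/6J, which carry a green fluorescent protein reporter of the fractalkine receptor gene Cx3cr1. Both were sorted through the same gate, with intermediate CD45, intermediate CD11B and a positive reporter signal, so the adult cells and their E18.5 comparators shared the strain, the reporter and the sort. The labels give the adult group no age beyond adult. The well annotation lists 1 subject number for all adult libraries and another for all E18.5 libraries, so age and subject cannot be told apart, and the tests below set the ages against a spread between libraries that may be technical.

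Microglia are the resident macrophages of the brain. They descend from yolk sac progenitors that enter the brain early in development, renew themselves locally and depend on signalling through the receptor Csf1r and on transforming growth factor beta. Late fetal microglia still divide and clear dying cells, while the microglia of the undisturbed adult brain are long-lived, ramified cells that sense their surroundings through receptors such as P2ry12. MARS-seq sorts 1 cell into each well, tags every captured messenger RNA with a unique molecular identifier (UMI) and reads the 3' end of the transcript, so that a count of UMIs is a count of captured molecules.

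A well was kept as a cell when it held 1 sorted cell and at least 300 UMIs on genes, which left 631 of 760 adult cells and 992 of 1140 E18.5 cells, between 147 and 186 per library. The kept cells held a median of 521 UMIs in the adult and 983 at E18.5, and the UMIs summed per library ran from 74562 to 99494 in the adult and from 143876 to 217647 at E18.5. Empty wells of these libraries held at most 39 UMIs. All 10 libraries were sequenced in 1 batch, with 2 libraries on each of 2 adult and 3 E18.5 plates. No well shared its pair of pool and cell barcodes with a well of another library. The same 192 cell barcodes were used in all 10 libraries, so that the pool barcode alone told libraries apart. Levels are given as counts per 1000000 UMIs of the library (CPM), and are therefore shares of the captured RNA and not amounts per cell. Of the 13 defining microglial markers, all were detected at both ages, and their summed level was 47722 to 50965 CPM in the adult and 28648 to 30607 CPM at E18.5. Within the sort gate, Itgam, which encodes CD11b, stood at 593 to 725 CPM in the adult and 498 to 1021 CPM at E18.5 without passing the test, and neither did Cx3cr1, at 242 to 416 CPM and 223 to 441 CPM. Ptprc, which encodes CD45, fell from 209 ± 69.4 to 60.6 ± 24.3 CPM (mean ± SD; log2 fold change -1.74, edgeR adjusted p = 0.00136).

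Adult microglia differed from E18.5 microglia in about as many genes upward as downward. Of 4883 genes tested with edgeR's quasi-likelihood test, 503 (10.3%) were higher and 547 (11.2%) lower in the adult at a Benjamini-Hochberg adjusted p under 0.05, together 21.5%. In 16.8% of the tested genes the adult and E18.5 libraries did not overlap, with all adult libraries above in 7.7% and all below in 9.13%. The median log2 fold change over all tested genes was -0.03. With only the 10 libraries compared in the fit, 3258 genes were tested, of which 483 were higher and 503 lower. More members passed as higher than as lower among genes of microglial identity, transforming growth factor beta signalling and signal feedback, and more as lower than as higher among genes of cell division, protein synthesis, lipid handling and phagocytosis, as the plot of gene lists shows. Adult libraries were the shallower ones: with every cell thinned to 300 UMIs, 1407 genes could be tested, of which 221 were higher and 232 lower. E18.5 replicates 5 and 6, which share a plate, stood apart in some genes named below, such as Ly86 and Eef1a1. Without them 463 genes were higher and 535 lower, and against them alone, with fewer libraries, 161 and 338. The log2 fold change without that plate was -2.22 for Ly86, -3.57 for Eef1a1 and -1.78 for Ctss, against -1.87, -3.17 and -1.53 with it. Against that plate alone it was -0.79, -1.86 and -0.96, and none of the 3 passed (edgeR adjusted p = 0.546, 0.467 and 0.252). In that setting 40 of the 119 genes that passed and are named below lost their call, and 10 homeostatic markers rose, 15 mitosis genes fell and 27 ribosomal protein genes fell. With UMIs summed per plate, 291 genes were higher and 407 lower, and 21 of the named genes lost their call: Csf1r, Lrrc33, Ly86, Ctss, C2, Itgb2, Cd33, Lpar6, Spp1, Ctsb, Rpl30, Eef1a1, Ndufa3, Pgk1, Pfkfb4, Elane, Ctsd, C1qc, Lpcat2, Csf2ra and Ifnar1.

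**Figure D1:**
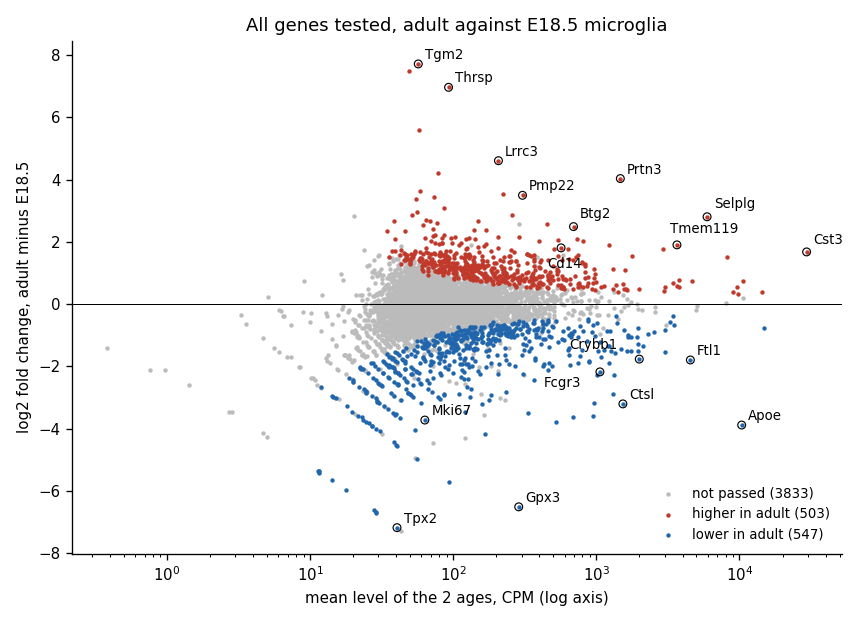
Log2 fold change of adult minus E18.5 (vertical axis) against the mean level of both ages in CPM (horizontal log axis) for each of the 4883 genes tested. Red points are the 503 genes higher and blue points the 547 genes lower in the adult at an adjusted p under 0.05, grey points did not pass, and ringed genes are described in the text; fitted values beyond about ± 5 belong to genes with almost no UMIs at 1 age.

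**Figure D2:**
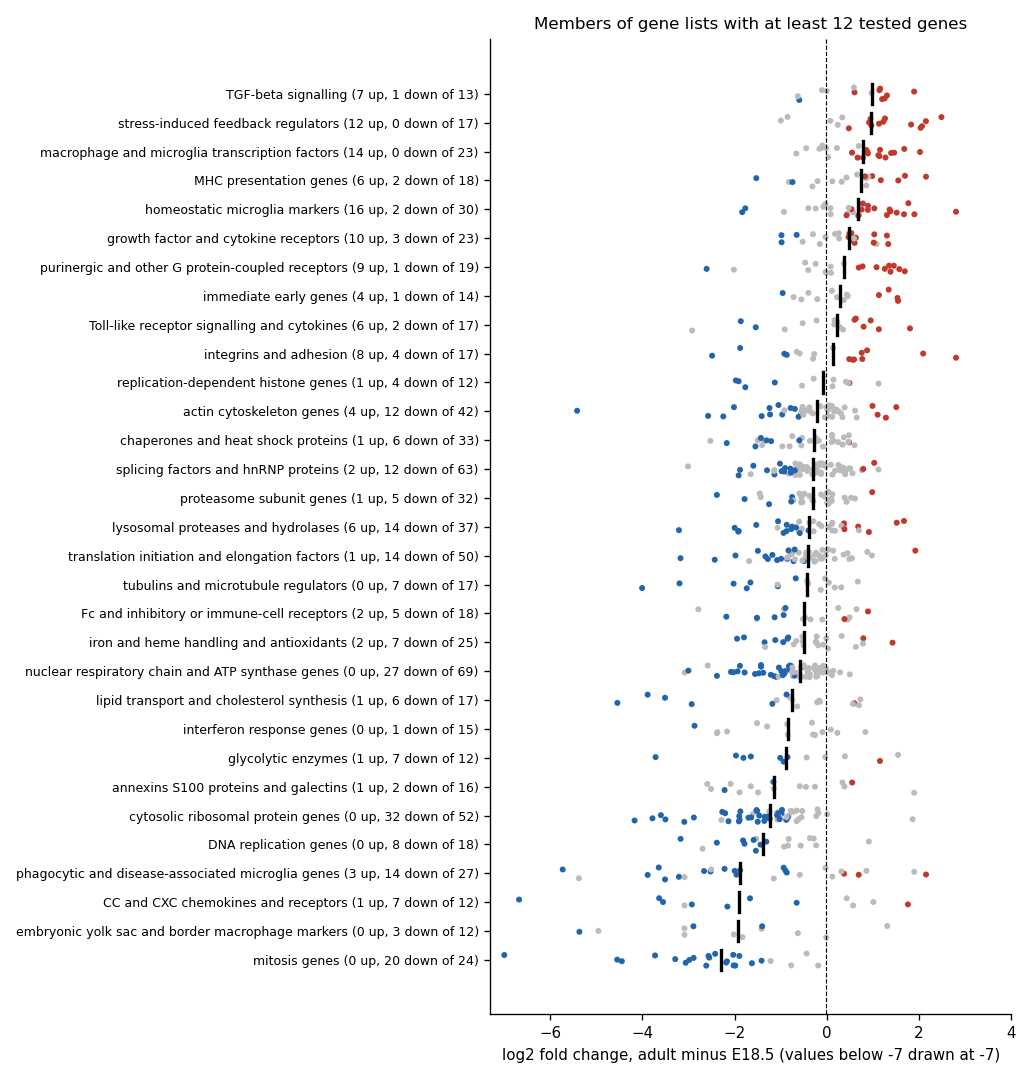
Log2 fold changes (horizontal axis) of the tested members of every list with at least 12 tested genes, ordered by the list's median (black bar); red and blue points passed the test as higher or lower in the adult, grey points did not, and the dashed line is the median of all tested genes. TGF-beta signalling has the highest median, 0.97, and mitosis genes the lowest, -2.30.

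Homeostatic markers of microglia were mostly higher in the adult. Of 30 tested homeostatic markers, 16 rose and 2 fell, with a median log2 fold change of 0.68, and the list's summed level was 111904 to 124293 CPM in the adult libraries and 55760.1 to 59694 CPM in the E18.5 libraries. Selplg, which encodes the selectin ligand PSGL, was at 10483, 10241, 10453 and 10273 CPM in adult replicates 1 to 4 and at 1299.7 to 1617 CPM (median 1539) in the 6 E18.5 libraries. The adult libraries lay close together and far above every E18.5 library (log2 fold change 2.81 ± 0.11, adjusted p = 2.18e-22 by edgeR). Tmem119, a membrane protein used to tell microglia from other brain macrophages, was at 5417, 6055, 6182 and 5324 CPM in the adult and 1439 to 1731 CPM (median 1555) at E18.5 (log2 fold change 1.90 ± 0.13, adjusted p = 1.31e-14). The groups did not overlap for Tmem119 either. Cst3, the secreted protease inhibitor cystatin C, rose from 14272 ± 897 to 44609 ± 5772 CPM (mean ± SD, log2 fold change 1.68, adjusted p = 8.08e-16). The ADP receptor P2ry12 rose from 157 ± 62.9 to 395 ± 127 CPM (adjusted p = 0.000198), and Ecscr, a small membrane protein first known from endothelium, from 291 ± 85.5 to 969 ± 95.9 CPM (adjusted p = 1.99e-09). P2ry12 lost its call without the plate of adult replicates 1 and 2 (log2 fold change 0.83, edgeR adjusted p = 0.145).

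Smaller rises were seen in 3 further microglial markers. Csf1r, the receptor for the survival factors CSF1 and interleukin-34, stood at 10825, 11604, 11762 and 10984 CPM in the adult and at 7544 to 8646 CPM (median 7897) at E18.5 (log2 fold change 0.53, adjusted p = 0.000256, and 0.0593 with UMIs summed per plate). Sparc, a secreted matrix-binding protein, rose by a log2 fold change of 0.76 (adjusted p = 0.000476). Sall1, a zinc finger transcription factor of microglial identity, rose by 0.89 (adjusted p = 0.000882), with 683, 681, 686 and 912 CPM in the adult. These genes belong to the marker list that defined the cell type here, and the groups did not overlap for any of them. The 2 homeostatic markers that fell were Crybb1, a beta crystallin, and the row that joins Rnase4 with Ang, which encode secreted ribonucleases. Crybb1 was at 844, 1000.0, 987 and 724 CPM in the adult and 2297 to 4459 CPM (median 3114) at E18.5 (log2 fold change -1.77 ± 0.21, adjusted p = 4.7e-07). The Rnase4 row fell from 1398 ± 279 to 383 ± 30.6 CPM (log2 fold change -1.84, adjusted p = 0.00166). All adult libraries lay below all E18.5 libraries for both.

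**Figure D3:**
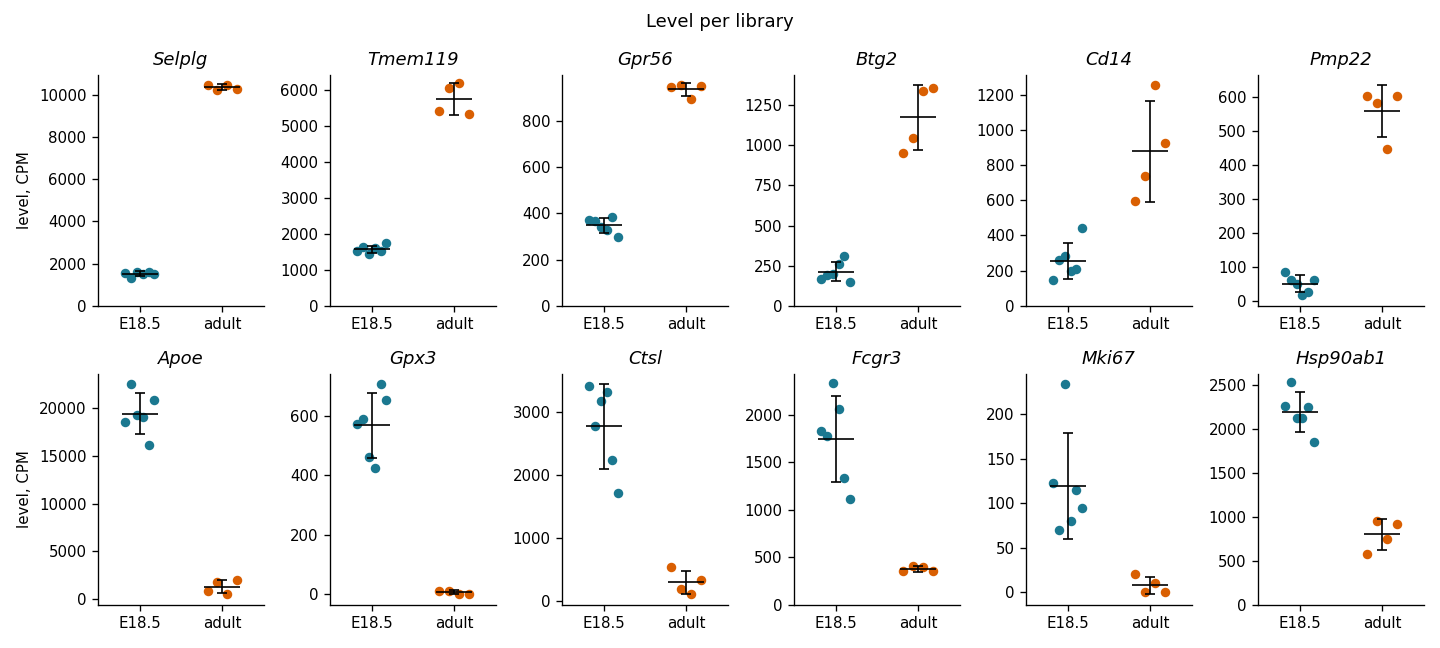
Level in CPM (vertical axis, from 0) of 12 genes in each library, 6 E18.5 libraries (blue) and 4 adult libraries (orange), with the mean and its SD in black. The upper row shows genes that rose, such as Selplg at 1299.7 to 1617 CPM before birth and 10241 to 10483 CPM in the adult, and the lower row genes that fell; the groups overlap in none of the 12 panels.

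Of 23 tested transcription factors of macrophages and microglia, 14 rose and 0 fell, and the list's median log2 fold change was 0.79. Mef2a, a MADS-box factor active at microglial enhancers, was at 523, 308, 364 and 416 CPM in the adult and 97.5 to 164 CPM (median 135) at E18.5. All adult libraries were above all E18.5 libraries (log2 fold change 1.68 ± 0.25, adjusted p = 1.55e-06, edgeR). The interferon regulatory factor Irf5 rose by 1.46 (adjusted p = 1.25e-07) and the myeloid factor Cebpa by 1.40 (adjusted p = 9.27e-07) on the log2 scale, without overlap between the ages. Among the other members that rose were Sall1, Sall3, Irf8, Irf1, Ets1, Fli1 and Tcf4. The count of members that rose ran from 10 to 14 when single libraries were left out, and was 8 with UMIs summed per plate.

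Transforming growth factor beta holds adult microglia in their homeostatic state, and its pathway has receptors, Smad effectors and inhibitors that the signal itself induces. Of 13 tested genes of the pathway, 7 rose and 1 fell, with a median log2 fold change of 0.97 and a summed level of 5267 to 6478 CPM in the adult libraries and 2628 to 3019 CPM in the E18.5 libraries. The receptor subunit Tgfbr1 was at 1116, 923, 1039 and 1448 CPM in the adult and at 389 to 581 CPM (median 447) at E18.5, without overlap (log2 fold change 1.31 ± 0.18, adjusted p = 4.17e-07, edgeR). The other receptor subunit, Tgfbr2, stood at 312 to 418 CPM and 127 to 308 CPM and did not pass, although the libraries did not overlap (adjusted p = 0.351); it passed when only the 10 libraries compared were fitted (adjusted p = 0.0298). Pmepa1, an inhibitor that binds Smad proteins, was at 1689, 1747, 2005 and 2307 CPM against 454 to 636 CPM (median 518; log2 fold change 1.90 ± 0.16, adjusted p = 1.74e-12). All adult libraries exceeded every E18.5 library in Pmepa1 as well. Skil, a repressor of Smad-driven transcription, and Smad7, the inhibitory Smad, rose by 1.26 (adjusted p = 0.00321) and 1.20 (adjusted p = 0.00228) on the log2 scale. Lrrc33, which anchors latent transforming growth factor beta at the surface of microglia, fell from 437 ± 12.2 to 279 ± 72.5 CPM (log2 fold change -0.60, adjusted p = 0.0138), a call that was lost without adult replicate 4 (adjusted p = 0.0784).

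Immediate early genes are transcribed within minutes of a stimulus, and also of tissue dissociation and sorting, and feedback regulators that end such signals follow them. Of 14 tested immediate early genes, 4 rose and 1 fell, with a median log2 fold change of 0.30. Of 17 tested feedback regulators, 12 rose and 0 fell, with a median of 0.97. The AP-1 subunit Jun was at 2493, 2505, 2037 and 3447 CPM in the adult and at 669 to 1167 CPM (median 958) at E18.5 (log2 fold change 1.54 ± 0.22, adjusted p = 1.48e-05, edgeR). Its relatives Jund and Junb rose too, Jund by 1.55 (adjusted p = 4.92e-05) and the row that holds Junb by 1.13 (adjusted p = 3.63e-06) on the log2 scale. Their partner Fos did not pass, at 1165 to 1341 CPM in the adult and 1007 to 1493 CPM at E18.5 (log2 fold change 0.11 ± 0.20, adjusted p = 0.75). Ier5 rose by 1.34 (adjusted p = 1.38e-05), and Ier3, which protects from cell death, fell by 0.96 on the log2 scale (adjusted p = 0.0134), a call lost without adult replicate 4 (adjusted p = 0.0569).

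Among the feedback regulators, Btg2, an inhibitor of cell cycle progression, was at 955, 1044, 1340.4 and 1355 CPM in the adult and at 149 to 308 CPM (median 195) at E18.5. The lowest adult library had more than the highest E18.5 library (log2 fold change 2.49 ± 0.19, adjusted p = 3.95e-13, edgeR). Zfp36l2, which binds AU-rich elements and speeds the decay of messenger RNA, rose from 75.2 ± 31.7 to 335 ± 49.2 CPM (adjusted p = 5.44e-07). Sgk1, a kinase induced by glucocorticoids and serum, was at 692 to 1122 CPM against 149 to 265 CPM (adjusted p = 2.98e-10), and Nfkbia, the inhibitor of NF-kB, at 442 to 791 CPM against 74.5 to 234 CPM (adjusted p = 2.77e-08). In none of these 4 genes did the groups overlap. With each cell thinned to 300 UMIs, 63.3% ± 3.39 of adult cells (SD, n = 4) and 41.2% ± 3.97 of E18.5 cells (n = 6) held at least 2 UMIs of immediate early genes, a difference of 22.1 percentage points (two-sided exact permutation test over libraries, p = 0.00952, the smallest the 210 splits allow; adjusted over 3 shares, 0.0143). Each adult library, from 58.9% to 66.7%, lay above each E18.5 library, from 36.8% to 47.7%. The permutation tests of shares counted the 2 libraries of a plate separately, and no share was tested by plate. In whole cells, without thinning, the share was -0.72 percentage points apart (adult minus E18.5, exact permutation p = 0.876), at a median of 521 UMIs per adult cell and 983 per E18.5 cell. The part of the time from dissection to sorting in these transcripts was not tested.

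**Figure D4:**
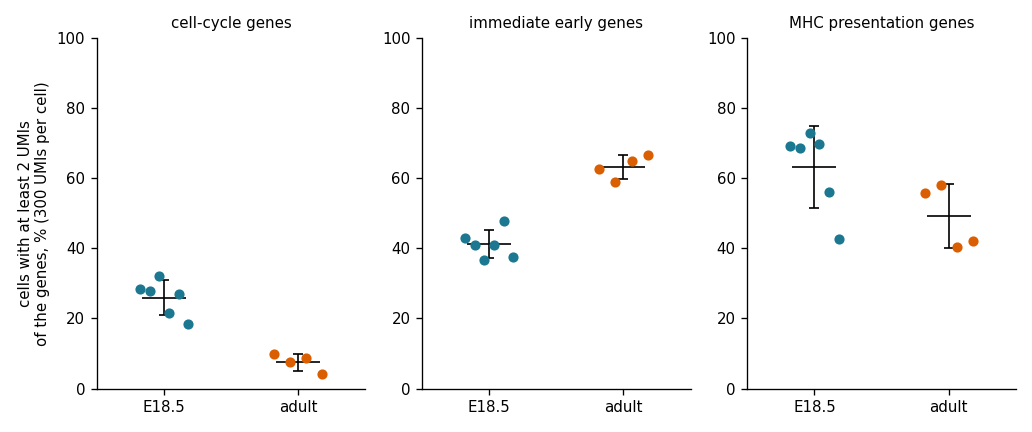
Percent of cells with at least 2 UMIs of cell-cycle, immediate early and MHC presentation genes (vertical axis, 0 to 100) in each E18.5 (blue, n = 6) and adult library (orange, n = 4), with mean and SD in black; every cell was thinned to 300 UMIs. The ages do not overlap for cell-cycle and immediate early genes, and overlap for MHC presentation genes.

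Of 17 tested genes of Toll-like receptor signalling and cytokines, 6 rose and 2 fell, the second count near the 11.2% of all genes, and 2 rose with UMIs summed per plate. Cd14, the co-receptor for lipopolysaccharide, was at 593, 736, 1257 and 925 CPM in the adult and at 149 to 443 CPM (median 232) at E18.5. All adult libraries were above the highest E18.5 library (log2 fold change 1.81 ± 0.22, adjusted p = 6.4e-08, edgeR). The NF-kB subunit Rela rose from 137 ± 29.2 to 299.7 ± 134 CPM (adjusted p = 0.0006), with overlap between the ages. Unc93b1, the chaperone of the endosomal receptors, did not pass (log2 fold change 0.29 ± 0.14, adjusted p = 0.135). The 2 members that fell were Ly86, the partner of the receptor RP105, and Tlr13, a sensor of bacterial ribosomal RNA. Ly86 stood at 329.7 to 416 CPM in the adult and over a wide range of 420.4 to 2505 CPM at E18.5, and its call (adjusted p = 0.0354) was lost without any 1 adult library and without E18.5 replicate 3 or 4 (largest adjusted p = 0.0831). Tlr13 fell from 149.8 ± 54.1 to 49.5 ± 30.5 CPM (adjusted p = 0.0161), which was lost without adult replicate 2 or 3 (largest adjusted p = 0.0746). The number of members that fell was 0 without adult replicate 2 or 3, 1 without adult replicate 4 or E18.5 replicate 3 and 4 without E18.5 replicate 6.

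Of 18 tested genes of antigen presentation on MHC molecules, 6 rose and 2 fell, with a median log2 fold change of 0.74. The falls were near the 11.2% of all tested genes. Those that rose included the light chain of class I, in the row that joins B2m with BC002288, at 402, 670.3, 332 and 483 CPM in the adult and 42.5 to 149 CPM (median 118) at E18.5 (log2 fold change 2.16 ± 0.27, adjusted p = 2.03e-07, edgeR). They also included both chains of the class II peptide exchanger, with H2-DMa rising from 180.2 ± 61.4 to 519 ± 114 CPM (adjusted p = 1.53e-06) and the row of H2-DMb1 and H2-DMb2 by 1.70 on the log2 scale (adjusted p = 2.14e-05). Psmb9, a subunit of the immunoproteasome, rose by 0.99 (adjusted p = 0.00576). The 2 that fell work in the lysosome, where class II peptides are made. Ctss, the protease cathepsin S, was at 1678, 1308, 1247 and 1878 CPM in the adult and at 2406 to 5969 CPM (median 4692) at E18.5, without overlap (log2 fold change -1.53 ± 0.37, adjusted p = 0.00787). Its call was lost with UMIs summed per plate (adjusted p = 0.137) and without either adult plate (0.0809 and 0.0688). Ifi30, a thiol reductase of lysosomes, fell from 634 ± 105 to 365 ± 141 CPM (adjusted p = 0.00326). The share of cells with at least 2 UMIs of the list, which counts Ctss, was 49.2% ± 9.14 in the adult and 63.3% ± 11.7 at E18.5 and did not pass (exact permutation p = 0.0857). It did pass without adult replicate 2 (exact permutation p = 0.0476, difference -17.1 percentage points) or without E18.5 replicate 6 (exact permutation p = 0.0317, difference -18.2), while in cells of at least 500 UMIs thinned to 500 the difference was -2.70 (exact permutation p = 0.657).

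Of 8 tested complement genes, 3 rose and 1 fell; with UMIs summed per plate 1 rose and 0 fell. C1qa, one of the 3 chains of C1q, was at 12544, 12802, 12874 and 14176 CPM in the adult and 6641 to 9879.8 CPM (median 7725) at E18.5, without overlap (log2 fold change 0.76 ± 0.12, adjusted p = 1.28e-05, edgeR). C1qc rose by 0.32 on the log2 scale (adjusted p = 0.018), but its call was lost without any 1 adult library and without E18.5 replicate 1, 2 or 4 (largest adjusted p = 0.0779). The third chain, C1qb, stood at 10609 to 11869 CPM and 9465 to 10405 CPM and did not pass (adjusted p = 0.129), although the libraries did not overlap; it passed by DESeq2 (adjusted p = 0.0142), with the 10 libraries alone (0.0105), with batch as a covariate (0.0217) and with libraries (0.0218) or cells thinned (0.0282). Itgb2, the integrin chain that pairs with CD11b, rose from 195 ± 36.4 to 323 ± 70.1 CPM (adjusted p = 0.00752; 0.0616 without adult replicate 1). The complement protease C2 had 0 UMIs in all 4 adult libraries and 24 at E18.5, at least 2.72-fold lower in the adult against a floor of 3 UMIs over the group (adjusted p = 0.0342, lost without any 1 adult library and without E18.5 replicate 3 or 4, largest adjusted p = 0.0787).

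Chemokines were lower in the adult. Of 12 tested chemokines, chemokine receptors and relatives, 7 fell and 1 rose, and the median log2 fold change was -1.91. The row that joins Ccl3, a chemokine for monocytes and microglia, with AK137525 was at 60.3, 98.9, 52.0 and 201 CPM in the adult and 1112 to 1432 CPM (median 1273) at E18.5. Each adult library was far below each E18.5 library (log2 fold change -3.64 ± 0.34, adjusted p = 6.28e-08, edgeR). Ccl2, which draws monocytes, fell from 90.9 ± 35.3 to 11.1 ± 8.36 CPM (adjusted p = 0.00135). Ccl5 had 0 UMIs in the adult and 60 at E18.5, at least 6.80-fold lower, with 1 E18.5 library also at 0 (adjusted p = 0.0192). Its call was lost without either adult plate (edgeR adjusted p = 0.123 and 0.104). The receptor Cxcr2 had 2 UMIs in the adult and 78 at E18.5, a ratio of 13.3 (exact 95% interval 3.55 to 111), which covers counting error only (adjusted p = 0.000731). The member that rose was Cmtm6, a membrane protein of the chemokine-like factor family, at 703 to 904 CPM against 146 to 297 CPM (log2 fold change 1.76, adjusted p = 1.5e-08). Without E18.5 replicate 2 the number of members that rose was 2.

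Of 18 tested Fc and immune-cell receptors, 5 fell and 2 rose. Over all tested genes 11.2% fell and 10.3% rose, and the 2 rises were near that share. Fcgr3, an activating receptor for immunoglobulin G, was at 352, 407, 395 and 349 CPM in the adult and 1112 to 2335 CPM (median 1806) at E18.5, and its signalling partner Fcer1g, the Fc receptor gamma chain, at 1156, 1022, 738 and 644 CPM and 2228 to 2911 CPM (median 2697). The ages did not overlap for either gene (log2 fold change -2.18 and -1.51, edgeR adjusted p = 0.000124 and 6.89e-10). The inhibitory receptor Cd300a fell from 205 ± 52.4 to 91.7 ± 24.6 CPM (adjusted p = 0.00723). Cd33, a sialic acid receptor, rose from 138 ± 19.6 to 249 ± 76.4 CPM (adjusted p = 0.00569), lost without adult replicate 1 (adjusted p = 0.107). Sirpa, the receptor for CD47, did not pass, at 2025 to 2712 CPM and 2339.9 to 3199 CPM.

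Of 19 tested purinergic and other G protein-coupled receptors, 9 rose and 1 fell, with a median of 0.37. Gpr56, an adhesion receptor, was at 945, 956, 894 and 952 CPM in the adult and 299 to 386 CPM (median 355) at E18.5, and the adult libraries hardly differed among themselves (log2 fold change 1.46 ± 0.18, adjusted p = 3.37e-08, edgeR). Gpr183, a receptor for oxysterols, was at 482, 615, 675 and 416 CPM against 151 to 250.2 CPM (median 176; log2 fold change 1.58 ± 0.22, adjusted p = 4.7e-07). Neither gene showed overlap between the ages. The adrenergic receptor Adrb1 rose from 45.0 ± 26.5 to 146 ± 48.6 CPM (adjusted p = 0.00413), with 1 adult library just below the highest E18.5 library. The row of the UDP receptor P2ry6 did not pass (log2 fold change 0.09 ± 0.15). Lpar6, a receptor for lysophosphatidic acid, fell from 71.7 ± 20.1 to 10.2 ± 11.8 CPM (adjusted p = 0.0177), lost without adult replicate 2 or 4 (largest adjusted p = 0.064). Without E18.5 replicate 6 the number that fell was 2.

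Among 23 tested growth factor and cytokine receptors, 10 rose and 3 fell, the falls near the 11.2% of all tested genes. The number that rose was 6 without adult replicate 1 or 3 and 4 with UMIs summed per plate. Il21r, the receptor for interleukin-21, rose from 113 ± 19 to 284 ± 83.7 CPM (adjusted p = 8.19e-05, edgeR). Csf3r, the receptor for granulocyte colony-stimulating factor, rose from 150.1 ± 29.8 to 299.5 ± 26.8 CPM (adjusted p = 0.00144). Il6st, the signalling chain shared by the interleukin-6 family, rose from 223 ± 36.0 to 441 ± 85.0 CPM (adjusted p = 0.000177). In each of the 3 the adult libraries lay above all E18.5 libraries. Il4ra, a chain of the interleukin-4 receptor, fell by 0.65 on the log2 scale (adjusted p = 0.00599). Csf2ra and Ifnar1, chains of the receptors for granulocyte-macrophage colony-stimulating factor and type I interferon, passed as lower (adjusted p = 0.037 and 0.0414), and both calls were lost without adult replicate 1 or 4 and without E18.5 replicate 4 or 5, that of Csf2ra also without adult replicate 3 (largest adjusted p = 0.148 and 0.162).

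Genes of phagocytosis, which also mark the microglia seen around dying neurons and plaques, were lower in the adult. Of 27 tested members, 14 fell and 3 rose, the rises near the 10.3% of all tested genes, and the median log2 fold change was -1.88. Of 17 tested genes of lipid transport and cholesterol synthesis, 6 fell and 1 rose, with a median of -0.75; Apoe and Lpl stand in both lists. Apoe, the lipoprotein that carries cholesterol between brain cells, was at 874, 1736, 519.5 and 2039 CPM in the adult and 16136 to 22540.2 CPM (median 19218) at E18.5. The adult libraries differed by up to several-fold among themselves, yet every one was far below the lowest E18.5 library (log2 fold change -3.89 ± 0.31, adjusted p = 2.03e-07, edgeR). With each cell thinned to 300 UMIs, 9.82% to 38.1% of the cells of an adult library and 95.1% to 98.4% of those of an E18.5 library held an Apoe UMI. Without thinning these shares were 19% to 51.0% and 98.9% to 100%. Empty wells held 0 Apoe UMIs among 188 UMIs in the 8 wells of the adult libraries and 7 among 257 in the 12 of E18.5.

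Several other genes of these lists were close to 0 in the adult. Apoc1, another apolipoprotein, had 1 UMI in the adult and 84 at E18.5, a ratio of 28.5 (exact 95% interval 4.98 to 1140.5; edgeR adjusted p = 2.5e-05). The row that joins Lpl, lipoprotein lipase, with AK170106 had 2 and 74 UMIs, a ratio of 12.6 (exact 95% interval 3.36 to 106; adjusted p = 0.000973). Axl, a receptor for the eat-me signal bridge Gas6, had 2 and 81 UMIs, a ratio of 13.8 (exact 95% interval 3.69 to 116; adjusted p = 0.00672). These intervals cover counting error only. Axl lost its call without either adult plate (edgeR adjusted p = 0.111 and 0.0821). Scd2, a desaturase of fatty acids, fell from 327 ± 67.3 to 41.1 ± 13.8 CPM (log2 fold change -2.93, adjusted p = 8.65e-08). Igf1, the growth factor that microglia supply to neurons and oligodendrocytes, fell from 101 ± 44.2 to 16.2 ± 13.0 CPM (adjusted p = 0.00104), and the tetraspanin Cd9 from 1173 ± 322 to 313 ± 33.8 CPM (adjusted p = 0.000173). Spp1, osteopontin, had 1 UMI in the adult and 9.19 to 338 CPM at E18.5, with replicates 5 and 6, which share a plate, lowest; its call (adjusted p = 0.0364) was lost without any 1 adult library and without E18.5 replicate 2, 3 or 4 (largest adjusted p = 0.0992). The 3 members that rose were the B2m row, Trem2 and Ctsd. Trem2, the lipid-sensing receptor upstream of this programme, was at 4181, 3747, 4686 and 4265 CPM in the adult and 2385 to 3109 CPM (median 2608) at E18.5, without overlap (log2 fold change 0.69 ± 0.12, adjusted p = 3.22e-05). Ctsd, the protease cathepsin D, rose by 0.38 on the log2 scale (adjusted p = 0.0117; 0.0714 without adult replicate 4). Lpcat2, a phospholipid-remodelling enzyme and the only tested lipid gene that rose, did so by 0.60 (adjusted p = 0.0103; 0.0623 without adult replicate 4), and the lipoprotein receptor Lrp1 did not pass (adjusted p = 0.299). Without adult replicate 2 the number of lipid genes that rose was 2.

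Lysosomal enzymes split by gene. Of 37 tested proteases, hydrolases and their partners, 14 fell and 6 rose, Cst3 and Ctsd among them, and 3 rose with UMIs summed per plate. The summed level of the list was 102085 to 115359 CPM in the adult libraries and 76312 to 83280.0 CPM in the E18.5 libraries. Its mean was 110293 CPM in the adult and 79373 CPM at E18.5. Most of that difference lay in the protease inhibitor Cst3, at a mean of 44609 CPM in the adult and 14272 CPM at E18.5. Ctsl, cathepsin L, was at 533, 187, 114 and 335 CPM in the adult and 1720.4 to 3405 CPM (median 2977) at E18.5. Every adult library was below every E18.5 library (log2 fold change -3.21 ± 0.42, adjusted p = 5.11e-05, edgeR). Ctsb, cathepsin B, fell from 685 ± 107 to 164 ± 60.4 CPM (adjusted p = 0.0242), lost without adult replicate 2, 3 or 4 (largest adjusted p = 0.0677). Gusb, beta-glucuronidase, fell from 687 ± 130.0 to 180.0 ± 59.4 CPM (adjusted p = 8.24e-09). Lgmn, the asparaginyl protease legumain, did not pass, at 7782 to 8571 CPM in the adult and 7036 to 9244 CPM at E18.5 (log2 fold change 0.03 ± 0.12).

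Cell division genes were lower in the adult. Of 24 tested mitosis genes, 20 fell and 0 rose, with a median log2 fold change of -2.30. In 15 of the 24 all adult libraries were below all E18.5 libraries, against 9.13% of all tested genes. Members with almost no adult UMIs passed the filter on low counts through the embryonic libraries, so a fall was almost the only call open to them. With every cell thinned to 300 UMIs, 2 mitosis genes and 0 replication genes could be tested, and both mitosis genes fell. The list's summed level was 451 to 784 CPM in the adult libraries and 1898 to 3243 CPM in the E18.5 libraries. Of 18 tested genes of DNA replication, 8 fell and 0 rose, with a median of -1.37; the number that fell was 4 without adult replicate 1. With each cell thinned to 300 UMIs, 7.52% ± 2.47 of adult cells (SD, n = 4) and 25.9% ± 5.04 of E18.5 cells (n = 6) held at least 2 UMIs of both lists together, 72 gene rows. The libraries ran from 4.08% to 9.82% in the adult and from 18.5% to 32.3% at E18.5 and did not overlap (difference -18.4 percentage points, two-sided exact permutation p = 0.00952, adjusted 0.0143). Without thinning the difference was -39.3 percentage points.

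Several regulators of the spindle and of chromosomes had 0 to 3 UMIs over the adult libraries, while 4 mitosis genes did not pass. Tpx2, which builds the spindle, had 0 UMIs in the adult and 86 at E18.5, at least 9.74-fold lower (edgeR adjusted p = 2.65e-05). Birc5 and Cdca8, partners in the chromosomal passenger complex, had 1 and 2 UMIs in the adult against 84 and 109 at E18.5, ratios of 28.5 (exact 95% interval 4.98 to 1140.5) and 18.5 (exact 95% interval 5.00 to 155; adjusted p = 2.69e-05 and 2.27e-06). Ncapd2, a condensin subunit, had 1 UMI against 77, a ratio of 26.2 (exact 95% interval 4.56 to 1047; adjusted p = 1.46e-05). Mki67, the proliferation marker, was at 20.1, 0, 10.4 and 0 CPM in the adult, 3 UMIs in all, and at 69.5 to 233 CPM (median 104) at E18.5 (adjusted p = 0.000186). Replicates 2 and 4 of the adult held no Mki67 UMI, and E18.5 replicate 3 was the highest library. Top2a, the topoisomerase of dividing cells, was at 50.3, 11.0, 0 and 0 CPM in the adult and 83.0 to 284 CPM (median 126) at E18.5 (log2 fold change -3.06 ± 0.67, adjusted p = 0.00185), and its log2 fold change was -5.06 without adult replicate 1, which held most of its adult UMIs. Of the replication genes, Tk1, thymidine kinase, fell from 107 ± 38.9 to 11.2 ± 1.52 CPM (adjusted p = 9.28e-05) and Rpa2, a subunit of replication protein A, from 76.5 ± 10.5 to 13.8 ± 4.86 CPM (adjusted p = 0.000739). Mcm6, of the replicative helicase, did not pass at 30.2, 33.0, 364 and 40.2 CPM in the adult and 66.4 to 236 CPM at E18.5, where adult replicate 3 stood alone; without that library it fell by 2.09 on the log2 scale (adjusted p = 0.000925).

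Promoters of mitosis genes are known for CCAAT boxes, bound by NF-Y, and for the cell cycle homology region TTTGAA, bound by repressor complexes in resting cells. The RefSeq promoter table of build GRCm38.p6 holds 20 of the 24 tested mitosis genes, and the 250 bases before their start sites were searched for both motifs on both strands. CCAAT was found in 18 of the 20 genes, in 90.5% of their promoters against 33.9% of all 32851 promoters of the table. TTTGAA was found in 11 of the 20 genes, in 57.1% of their promoters against 16.0% of all. The set of all promoters also holds genes that were not tested here, and promoters of tested genes alone were not compared. Among 16 of the 18 tested replication genes, the shares of promoters were 52.4% and 14.3%. Those shown are the 3 genes of the mitosis list, which does not hold Cdca8, with the largest fitted falls among those in the table, Birc5, Ncapd2 and Mki67, together with Top2a, whose window holds 6 CCAAT and 2 TTTGAA matches. Letters in capitals are CCAAT or TTTGAA matches or their reverse complements, none of which overlap, and the sequences run 5' to 3' on the gene's strand. They lie at chr11:99024190-99024439 on the minus strand for Top2a, chr7:135716380-135716629 on the minus strand for Mki67, chr6:125191587-125191836 on the minus strand for Ncapd2 and chr11:117848987-117849236 on the plus strand for Birc5.
Top2a: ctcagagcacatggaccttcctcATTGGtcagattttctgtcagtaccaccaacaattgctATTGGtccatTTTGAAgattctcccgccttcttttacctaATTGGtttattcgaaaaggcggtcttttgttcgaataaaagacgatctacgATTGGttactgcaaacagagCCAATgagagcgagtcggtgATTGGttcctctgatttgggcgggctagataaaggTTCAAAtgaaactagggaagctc
Mki67: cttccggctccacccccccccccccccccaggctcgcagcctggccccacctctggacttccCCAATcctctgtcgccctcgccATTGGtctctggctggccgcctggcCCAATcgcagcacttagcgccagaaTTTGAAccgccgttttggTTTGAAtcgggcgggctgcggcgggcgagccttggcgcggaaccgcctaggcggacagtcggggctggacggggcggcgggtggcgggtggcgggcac
Ncapd2: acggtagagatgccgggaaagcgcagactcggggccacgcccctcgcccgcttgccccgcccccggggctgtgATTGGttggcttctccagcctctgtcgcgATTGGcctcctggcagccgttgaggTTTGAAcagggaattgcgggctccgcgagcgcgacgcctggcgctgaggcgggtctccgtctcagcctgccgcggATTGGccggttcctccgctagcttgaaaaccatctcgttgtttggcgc
Birc5: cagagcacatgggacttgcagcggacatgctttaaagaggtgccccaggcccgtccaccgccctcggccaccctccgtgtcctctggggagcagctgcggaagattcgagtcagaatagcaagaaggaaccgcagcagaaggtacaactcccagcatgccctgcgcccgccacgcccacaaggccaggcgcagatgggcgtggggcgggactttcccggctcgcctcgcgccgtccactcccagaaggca
Mki67 and Ncapd2 each hold 3 CCAAT matches, Mki67 2 and Ncapd2 1 TTTGAA match, and the window of Birc5 holds neither motif. A match of letters is a description and not evidence of binding.

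Genes of protein synthesis and energy metabolism were lower in the adult as groups. Of 52 tested cytosolic ribosomal protein genes, 32 fell and 0 rose, with a median log2 fold change of -1.24 and a summed level of 16832 to 22900.3 CPM in the adult libraries and 51345 to 57752 CPM in the E18.5 libraries. Of 50 tested initiation and elongation factors, 14 fell and 1 rose, and without adult replicate 3 the number that fell was 9, and with UMIs summed per plate 8. Nuclear genes of the respiratory chain and ATP synthase counted 69 tested members, of which 27 fell and 0 rose, with a median of -0.58 and a summed level of 9679 to 11132 CPM in the adult libraries and 15801 to 17648 CPM in the E18.5 libraries. Of 12 tested glycolytic enzymes and regulators, 7 fell and 1 rose. Both larger lists had summed levels that did not overlap between the ages. The number of ribosomal genes that rose was 1 without adult replicate 3 or E18.5 replicate 1. Because CPM are shares of a total, a lower share of these transcripts goes with a higher share of others, and amounts per cell were not measured.

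Single ribosomal protein genes varied between libraries. Rpl30, a protein of the large subunit, was at 10.1, 44.0, 10.4 and 0 CPM in the adult and 127 to 461 CPM (median 344) at E18.5 (log2 fold change -4.17 ± 1.16, adjusted p = 0.0185, edgeR), a call lost without adult replicate 1 or 3 (largest adjusted p = 0.0565), with a log2 fold change of -5.31 without adult replicate 2. Rpl32 was at 2895, 65.9, 72.7 and 134 CPM in the adult and 802 to 1984 CPM (median 1609) at E18.5. Adult replicate 1 alone was high, and without it Rpl32 fell by 3.99 on the log2 scale (adjusted p = 0.000115), while with it the gene did not pass (adjusted p = 0.538). The elongation factor Eef1a1 was at 231, 308, 93.5 and 107 CPM against 309.8 to 3079 CPM (median 1493), with E18.5 replicates 5 and 6 lowest of their group, and its call (adjusted p = 0.0448) was lost without any 1 adult library and without E18.5 replicate 1, 3 or 4 (largest adjusted p = 0.113). Eef2k, the kinase that slows elongation, was the factor that rose, from 32.9 ± 13.9 to 126 ± 57.3 CPM (adjusted p = 0.000544), and was not tested without E18.5 replicate 5.

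In energy metabolism, Ndufa3, a subunit of respiratory complex I, was at 10.1, 22, 31.2 and 53.6 CPM in the adult and 115 to 340.0 CPM (median 260.4) at E18.5, without overlap (log2 fold change -3.00 ± 0.66, adjusted p = 0.0033, edgeR; 0.0798 with UMIs summed per plate). Atp5c1, the gamma subunit of ATP synthase, fell from 208 ± 70.7 to 48.5 ± 24.2 CPM (adjusted p = 2.33e-05). Pkm2, the row of the muscle-type pyruvate kinase, was at 171, 396, 281 and 201 CPM against 947 to 1182 CPM (median 1040.1; log2 fold change -1.97 ± 0.20, adjusted p = 3.13e-10). All adult libraries were below all E18.5 libraries for each of these genes. Pgk1, phosphoglycerate kinase, had 1 UMI in the adult and 46 at E18.5, a ratio of 15.6 (exact 95% interval 2.67 to 631), and its call (adjusted p = 0.0194) was lost without adult replicate 1, 2 or 4 (largest adjusted p = 0.0712). Pfkfb4, which tunes glycolysis through fructose bisphosphate, rose from 65.2 ± 14.7 to 138 ± 65.3 CPM (adjusted p = 0.0101; 0.124 without adult replicate 1); without adult replicate 2 the number of glycolytic genes that rose was 2.

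Of 33 tested chaperones, 6 fell and 1 rose, and of 32 proteasome subunits 5 fell and 1 rose. Neither count of falls was far above the 11.2% of all tested genes. The proteasome count fell to 3 when adult replicate 1, 3 or 4 or E18.5 replicate 1 or 4 was left out. It was also 3 with UMIs summed per plate. The constitutive chaperone Hsp90ab1 was at 573, 956, 748 and 912 CPM in the adult and 1853 to 2530.0 CPM (median 2189) at E18.5 (log2 fold change -1.43 ± 0.14, adjusted p = 2.08e-10, edgeR). Psmb1, a subunit of the proteasome core, fell from 363 ± 37.8 to 105 ± 37.3 CPM (adjusted p = 5.64e-07), and the subunit that rose was Psmb9 of the immunoproteasome. The single chaperone that rose lost its call without adult replicate 1, 3 or 4 and without E18.5 replicate 1, 2, 4 or 6. Neither Hsp90ab1 nor Psmb1 overlapped between the ages. Of 42 tested actin cytoskeleton genes 12 fell and 4 rose, the rises near the 10.3% of all tested genes. Of 17 tubulins and microtubule regulators 7 fell and 0 rose. Without adult replicate 1 or 2, or with UMIs summed per plate, the tubulin count was 4. Without adult replicate 4 the count of actin genes that rose was 2. Flna, the actin cross-linker filamin A, fell from 276 ± 52.0 to 65.4 ± 13.2 CPM (adjusted p = 5.64e-07) and Tpm4, a tropomyosin, from 103 ± 33.4 to 15.7 ± 10.5 CPM (adjusted p = 0.000117). Gsn, the actin-severing protein gelsolin, had 0 UMIs in the adult and 25 at E18.5, at least 2.83-fold lower (adjusted p = 0.00185). Tuba1c, an alpha-tubulin, was at 10.1, 44.0, 62.3 and 0 CPM against 195 to 371 CPM (median 303), without overlap (log2 fold change -3.20 ± 0.39, adjusted p = 1.44e-07), and its log2 fold change was -3.88 without adult replicate 3.

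Among 25 tested genes of iron, heme and redox handling, 7 fell and 2 rose. Over all tested genes 11.2% fell and 10.3% rose, so the rises were no more than that share. Of the 2 ferritin subunits, which store iron together, 1 passed the test. The light chain Ftl1 was at 1980.0, 2099, 1901 and 1998 CPM in the adult and at 6215 to 7816 CPM (median 7069) at E18.5 (log2 fold change -1.80 ± 0.14, adjusted p = 3.99e-13, edgeR). The heavy chain Fth1 was at 1377, 1549, 1652 and 1448 CPM and 1404 to 2030.2 CPM (median 1580.0) and did not pass (log2 fold change -0.08 ± 0.13, adjusted p = 0.732); the difference between the chains was not tested. Hmox1, which degrades heme, fell from 110.4 ± 54.2 to 26.8 ± 12.0 CPM (adjusted p = 0.0028) and the peroxidase Gpx1 from 1755 ± 148 to 675 ± 199 CPM (adjusted p = 1.5e-08). Hpgd, which inactivates prostaglandins, was at 673, 363, 665 and 697 CPM in the adult and 164 to 276 CPM (median 240.1) at E18.5, without overlap (log2 fold change 1.43 ± 0.22, adjusted p = 4.26e-06).

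The largest rises outside these lists were in genes that E18.5 libraries almost lacked. Tgm2, a transglutaminase that cross-links proteins, was at 191, 87.9, 83.1 and 93.9 CPM in the adult and had 0 UMIs in all 6 E18.5 libraries, at least 41.2-fold higher against the floor of 3 UMIs (edgeR adjusted p = 6.55e-07). Thrsp, a thyroid hormone-responsive regulator of lipid synthesis, was at 131, 242, 125 and 241 CPM in the adult with 1 UMI at E18.5, a ratio of 191 (exact 95% interval 33.1 to 7671; adjusted p = 4.3e-09). Every adult library held both transcripts. Lrrc3, a leucine-rich repeat membrane protein, was at 312, 439.5, 436 and 402 CPM against 0 to 25.2 CPM (median 18.7; log2 fold change 4.61 ± 0.39, adjusted p = 8.7e-12). Pmp22, a membrane protein best known from peripheral myelin, was at 603, 582, 447 and 604 CPM against 17.2 to 85.0 CPM (median 55.7; log2 fold change 3.50 ± 0.31, adjusted p = 9.87e-12). For these genes, as for the adhesion protein Jam2 (log2 fold change 4.21 ± 0.60, adjusted p = 1.3e-06) and the adenylate kinase Ak1 (log2 fold change 2.71 ± 0.49, adjusted p = 5.17e-05), the lowest adult library lay above the highest E18.5 library. The log2 fold change of Jam2 was 4.88 without E18.5 replicate 4, which held the most of its UMIs at that age.

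Among the largest falls outside these lists was that of Gpx3, a secreted glutathione peroxidase, with 2 UMIs in the adult and 612 at E18.5, where the libraries ran from 424 to 708 CPM (median 582). The ratio was 104 (exact 95% interval 28.7 to 860.4; edgeR adjusted p = 1.95e-16). In whole cells, 2 of 631 adult and 363 of 992 E18.5 cells held a Gpx3 UMI, and after thinning to 300 UMIs the share was at most 0.633% in an adult library and at least 9.82% in an E18.5 library. Ttyh2, a membrane protein of the tweety family, had 1 UMI against 113, a ratio of 38.4 (exact 95% interval 6.75 to 1529.7; adjusted p = 2.15e-06). Nes, the intermediate filament nestin, was at 10.1, 11.0, 0 and 53.6 CPM in the adult and 82.0 to 201 CPM (median 138) at E18.5, without overlap (log2 fold change -2.98 ± 0.50, adjusted p = 2.42e-05); without adult replicate 4, which held most of its adult UMIs, the log2 fold change was -4.21.

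Each set of markers of other cells that the gate could hold summed to less than the microglial markers in every library. Some sets differed between the ages, and some stood out in single libraries. The 12 markers of border macrophages summed to 364 to 549.9 CPM in the adult and 1195 to 1577 CPM at E18.5; of 8 tested, 3 fell, namely Ms4a7, with 0 UMIs against 24, Dab2, from 152 ± 37.0 to 20.9 ± 18.9 CPM, and the row that joins Stab1 with FELE-1, from 935 ± 115 to 350.2 ± 151 CPM (edgeR adjusted p = 0.00265, 9.55e-06 and 5.83e-07). In the adult 6 of the 12 were at 0, Cd163 and Lyve1 among them, and at E18.5 only Cd209f was. Monocyte markers reached 1870.3 CPM in adult replicate 3, from Ly6c2, with Ccr2 and Plac8 at 0, and at most 207 CPM at E18.5. Markers of erythroid cells reached 3070.2 CPM in 1 E18.5 library and at most 134 CPM in the adult. Those of T and NK cells and of neurons reached at most 23 and 179 CPM in any library. In astrocytes the defining genes Gfap and Aqp4 were at 0 at both ages, and the marker that rose, Slc1a3, a glutamate transporter, was at 111, 121, 187 and 121 CPM in the adult and 5.31 to 23 CPM at E18.5 (adjusted p = 8.19e-06). Of 4 B cell markers in the table, Cd79a and Ms4a1 were at 0, and Cd79b fell from 230.1 ± 74.0 to 35.2 ± 22 CPM (adjusted p = 6e-07). Pecam1 fell from 66.6 ± 22.5 to 10.5 ± 14.7 CPM (adjusted p = 0.0171, lost without adult replicate 1 or 4, largest adjusted p = 0.0697), with the endothelial genes Cldn5 and Flt1 at 0 at both ages. Oligodendrocyte markers summed to 76.9 to 231 CPM in the adult and 79.7 to 184 CPM at E18.5.

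The 10 neutrophil markers summed to 1247 to 8626 CPM in the adult and 167 to 1178 CPM at E18.5, without overlap. Among them the granule enzymes stood apart. Prtn3, proteinase-3, was at 543, 6406, 3595 and 536 CPM in the adult and 51.6 to 388 CPM (median 146) at E18.5, so that adult replicates 2 and 3, from different plates, were far above the other libraries (log2 fold change 4.03 ± 0.70, adjusted p = 0.000746, edgeR). Its log2 fold change was 3.18 without adult replicate 2. Elane, neutrophil elastase, was at 402, 945, 62.3 and 389 CPM against 4.59 to 126 CPM (median 60.8) and passed (adjusted p = 0.0211), but not without adult replicate 2 (adjusted p = 0.121). Mpo, myeloperoxidase, was at 1839, 1253, 104 and 295 CPM against 18.4 to 968 CPM (median 232) and did not pass (adjusted p = 0.197); without E18.5 replicate 6 it did (log2 fold change 2.42, adjusted p = 0.0392). The order of the adult libraries was different for each of the 3 genes. Prtn3 was spread thinly over wells, with a UMI in 363 of 631 adult cells and at most 9 in a cell. The empty wells held 0 UMIs of all 3 genes, among only 188 UMIs in the adult libraries and 257 at E18.5. S100a9, Ngp, Ltf and Retnlg, the defining transcripts of mature neutrophils, were at 0 at both ages, and S100a8 was at 0 in the adult. The part of other cells, and of transfer between wells, in these values was not tested.

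**Figure D5:**
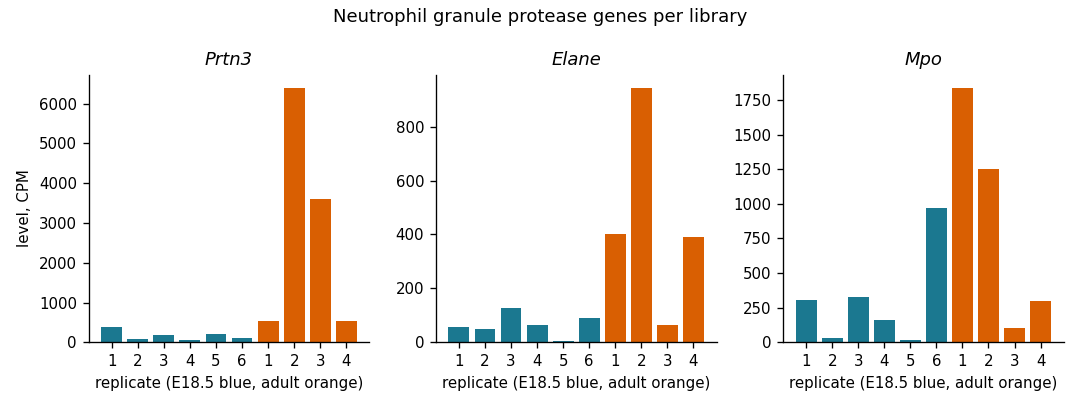
Level in CPM (vertical axis, from 0) of Prtn3, Elane and Mpo in each E18.5 library (blue, replicates 1 to 6) and adult library (orange, replicates 1 to 4). Prtn3 is highest in adult replicate 2, Elane in adult replicate 2 and Mpo in adult replicate 1, and Mpo also reaches 968 CPM in E18.5 replicate 6.

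The remaining lists are set by their counts beside the background of 10.3% higher and 11.2% lower. Of 15 tested interferon response genes, 0 rose and 1 fell, and of 12 histone genes 1 rose and 4 fell. Splicing factors had 2 that rose and 12 that fell among 63, and annexins, S100 proteins and galectins 1 and 2 among 16. Of 9 oncofetal and growth genes 0 rose and 3 fell, of 5 long noncoding RNAs 0 rose and 1 fell, and of 12 embryonic and border macrophage markers 0 rose and 3 fell. Leaving out single libraries moved small counts. No histone gene rose without adult replicate 2 or 4 or E18.5 replicate 1, 3 or 4, and none of the annexin list without adult replicate 2 or E18.5 replicate 1, 2 or 4. The number of oncofetal genes that fell was 1 without E18.5 replicate 1, 3 or 5, and 1 rose without adult replicate 4. The number of splicing factors that rose was 1 without any 1 adult library or E18.5 replicate 2, 3, 4 or 5, and 2 interferon genes fell without adult replicate 3 or E18.5 replicate 5. Of the integrins and adhesion molecules, 8 of 17 were higher, Selplg and Itgb2 among them, and 4 were lower, among them Pecam1 and Cd9; with UMIs summed per plate 2 were higher, and against E18.5 replicates 5 and 6 alone 3.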

How the data were processed

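The authors deposited UMI counts per gene and well from 3' end MARS-seq. Per the submitters' processing notes, bcl2fastq 2.15.0.4 and build mm9 were used; aligner, UMI collapsing and annotation: not given in the sources used here. Of 27297 gene rows, 2109 join several symbols.

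UMIs of wells with 1 sorted cell and at least 300 UMIs were summed per library. The 18 sums were fitted with edgeR 4.0.16 in R 4.3.3 (TMM scaling, filterByExpr by group, robust quasi-likelihood), sharing 1 estimate of the spread, and the contrast was adult minus E18.5. P-values were adjusted by Benjamini-Hochberg over 4883 genes, with a threshold of 0.05. CPM use the plain total. Against 0 UMIs in a group a bound from a floor of 3 UMIs over the group is given, and against 1 to 3 UMIs the ratio of summed shares with an exact 95% interval. Shares of cells (Python 3.11.15, numpy 2.4.6, pandas 2.3.3, scipy 1.17.1; figures with matplotlib 3.10.9) were tested by exact permutation over libraries. No doublet caller or clustering was run. Chi-square per degree of freedom between libraries of 1 age was 1.61 to 3.02, above sampling noise in every pair.

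On simulated counts of the adult and E18.5 comparison (4620 genes), 94% of changes of 2 and 71.7% of changes of -2 on the log2 scale were recovered. For changes of 1 and -1 the shares were 42% and 22%, and 5.17% of calls were false. Recovery was counted over the changed genes that passed the filter. Libraries were drawn independently, with a spread taken from its trend over levels and no plate or subject effect, so 5.17% need not hold for these data. Named genes are drawn from the 12 largest rises and falls without overlap and with at least 100 CPM in the higher group, up to 4 called members a direction and the most abundant member not passing in each of 34 gene lists, and the sort gate's genes. Sall1, Csf1r, Sparc, Mpo, Elane, Cd79b and members named without values were chosen after their values were seen. The members and lists were chosen with earlier results of these data known. Alternatives were DESeq2 1.42.0, RLE scaling, other filters and cell minimums, thinning, plate sums, the 10 libraries alone, batch as a covariate, leaving out libraries and, chosen after seeing the data, leaving out plates.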

Additional observations from a re-analysis of the deposited data

Results flagged for a closer look

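Sets of values were taken for 1 gene, 1 share of cells or 1 library measure in 1 age. In 278 such sets, 27 had a highest or lowest library separated from the rest by more than Dixon's 95% critical value. Chance alone gives about 1 in 20. Among adult libraries, the high values were Sall1 at 912 CPM, Tgm2 at 191 CPM and C1qc at 11232 CPM in replicates 4, 1 and 3, Mcm6 at 364 CPM and Slc1a3 at 187 CPM in replicate 3, and Rpl32 at 2895 CPM in replicate 1. For Rpl32 the other 3 adult libraries were between 65.9 and 134 CPM, and for Mcm6 between 30.2 and 40.2 CPM. The low adult values were Ier5 at 447 CPM and Pmp22 at 447 CPM in replicate 3, Cd300a at 54.9 CPM and Hpgd at 363 CPM in replicate 2, and Tpm4 at 0 CPM in replicate 4.

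A further 7 adult values were the only library with any UMI: Spp1 and Pgk1 at 10.4 CPM, Apoc1 and Ncapd2 at 10.1 CPM, Birc5 at 11.0 CPM, Ttyh2 at 13.4 CPM and Tacc3, a spindle protein, at 22 CPM. At 1 UMI, or 2 for Tacc3, these are within what counting error gives.

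Among E18.5 libraries, replicate 5 was highest for Rela at 193 CPM, Il6st at 294 CPM, Eef2k at 59.7 CPM and Il4ra at 455 CPM, and replicate 3 for Mki67 at 233 CPM. Replicate 6 was highest for Mpo at 968 CPM, where the others reached 328 CPM, and for Thrsp at 5.53 CPM, a single UMI. Ifnar1 was highest at 201 CPM in replicate 4, and Psmb1 lowest at 292 CPM in replicate 2.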

How the results depend on the processing

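No call over the 4883 genes turned its sign under any alternative run. The counts of genes higher and lower (503 and 547) moved to 291 higher with UMIs summed per plate, 329 and 347 with libraries thinned to 1 total, 221 and 232 with cells thinned to 300 UMIs, where 1407 genes were tested, and 323 higher at an absolute log2 fold change of at least 1. Without the plate of adult replicates 1 and 2 or of 3 and 4 the number higher was 256 and 290, and with E18.5 replicates 5 and 6 only, 161 and 338; fewer libraries enter these fits. Leaving out 1 library gave 398 to 478 higher and 467 to 557 lower. With no filter on low counts 364 were higher and 784 lower, 31.7% higher among those called. Of 119 named genes that passed, 68 kept their call in every alternative that gave a value and 98 in every fit without 1 library; none reversed. The most were lost with E18.5 replicates 5 and 6 only (40), then without the plate of adult replicates 1 and 2 (29) or of 3 and 4 (25). With UMIs summed per plate 21 were lost. P2ry12 and Hmox1 were among those lost without the plate of adult replicates 1 and 2 (edgeR adjusted p = 0.145 and 0.0636).

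The share of cells with immediate early genes reversed to -0.72 percentage points without thinning. The MHC share passed without thinning (-20.5), without adult replicate 2 (-17.1) and without E18.5 replicate 6 (-18.2), but shrank from -14.1 to -6.37 at 1 UMI or more and to -2.70 in cells thinned to 500 UMIs. The cell-cycle difference was -39.3 without thinning and -13.8 at 3 UMIs or more. Without single libraries, differences ran from -19.9 to -17.2 for cell-cycle genes, from 21.0 to 23.6 for immediate early genes and from -18.2 to -11.2 for MHC genes; the cause was not tested. No paired analysis was possible because the labels number no replicates: the numbers used here follow accession order, and the ages are on different plates.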

Other observations

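The shares of cells with a UMI show how widely some of these transcripts were spread, again with each cell thinned to 300 UMIs. Selplg was seen in 93.0% to 95.7% of the cells of an adult library and in 26.8% to 36.8% at E18.5, and without thinning in 97.5% to 100% and 54.5% to 74.8%. Tmem119 was seen in 76.7% to 84.2% and 32.9% to 40.9%, and without thinning in 89.1% to 94.5% and 60.8% to 76.1%. P2ry12 transcripts were found in 4.76% to 15.3% of adult cells and 1.91% to 6.13% of E18.5 cells, and without thinning in 9.52% to 22.1% and 5.73% to 17.7%. These shares were not tested, and at this depth a cell without a UMI is not a cell without the transcript.

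Btg2 was seen in 22.1% to 33.5% of adult cells and 3.82% to 10.3% of E18.5 cells. Ctsl was seen in 3.68% to 12.9% and 30.6% to 55.5%. Spp1, osteopontin, was found in 48 of 992 E18.5 cells before thinning, with up to 43 UMIs in 1 cell, and in 1 of 631 adult cells, so that its level at E18.5 came from a small share of the cells. Prtn3 was seen in 14.7% to 84.8% of the cells of an adult library and Mpo in 3.68% to 44.2%, against 1.23% to 9.14% and 0.645% to 30.6% at E18.5.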
